A study of Mus musculus with 32 samples.

Results

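Shh, the secreted signal that patterns the limb from posterior to anterior, lies on mouse chromosome 5 at 28456815 to 28467256 on the minus strand, in the mm10 build. On the side of its start lies a long desert without other protein-coding genes, and beyond it stand Rnf32, Lmbr1, Nom1 and Mnx1. An intron of Lmbr1 holds the ZRS, the enhancer of Shh in the limb bud. Every ATAC-seq summit in 1.2 Mb of this chromosome, from the Rbm33 promoter to beyond Mnx1, was collected from 32 libraries of mouse limb buds, which gave 351 of 1234971 summits. Summits closer than 500 bp were joined into 50 sites, and the 36 sites listed in at least 2 libraries (recurrent sites) were described, out of 101292 such sites in the genome. The other 14 sites were each listed in 1 library, 5 of them in E10.5 Posterior.

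A gene can be controlled from enhancers far away that share its regulatory domain, which for Shh reaches from the gene to Lmbr1. The ZRS drives Shh at the posterior margin of the limb bud, and single-base changes in it cause extra digits. Factors known to act there include HAND2, HOXD13 and the ETS factors ETS1 and GABPA, while ETV4 and ETV5 restrict its activity. ETV2 is an ETS factor best known for the formation of blood and endothelium. Rnf32, Lmbr1 and Nom1 are neighbours of the domain, and Mnx1 encodes a homeobox factor of motor neurons and pancreas.

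The cells came from hindlimb at E9.5 (E9.5 HL, 1 library of wild-type tissue) and from E10.5 hindlimbs of Shh-EGFP, a knockin reporter line. The knockin hindlimbs gave E10.5 Anterior, 1 library, and E10.5 Posterior, 1 library of EGFP+ cells. Further cells came from Etv2-EYFP transgenic embryos at E10.5. The last were EYFP+ cells of hindlimb (E10.5 HL EYFP+, 3 libraries) and forelimb (E10.5 FL EYFP+, 3 libraries), from which endothelial cells had been sorted out by CD31 and TIE2, and the labels call them GFP_pos. Etv2CKO cells (HoxB6-Cre Tg/+, with Etv2 fl/-) came from hindlimb at E10.25 (E10.25 CKO, 5 libraries) and from posterior hindlimb at E10.5 (E10.5 CKO, 2 libraries), and wild-type cells at E10.25 (E10.25 WT) gave 2 libraries. The paper describes the E10.25 cells as posterior as well, and the E10.5 CKO cells as unsorted, so that the E10.5 CKO and E10.5 HL EYFP+ libraries differ in sort and in the part of the limb besides genotype. HoxB6-Cre acts in the whole hindlimb precursor. The other 14 libraries came from the anterior (A) and posterior (P) portions of the hindlimbs of 4 control and 3 Etv2OE embryos, whose labels say E10.5, whereas the methods describe a later harvest, after a last dose of doxycycline at that stage. Etv2OE embryos carried HoxB6-Cre, the inducible transgene iHA-Etv2 and ROSA26-STOP-rtTA-IRES-EGFP, each as Tg/+. Doxycycline was given to the pregnant dams, and so to littermates as well. The controls, labelled WT_Control, were per the methods littermates that lacked either iHA-Etv2 or the rtTA transgene. For its in situ hybridizations a figure legend gives other controls, HoxB6-Cre +/+ with iHA-Etv2 and the rtTA transgene as Tg/+. The labels do not say which genotype the control libraries had.

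Each deposited list held between 13763 and 54676 summits, each with the -log10 q-value of the peak caller. Read counts are not in the lists, so values were used only as ranks, and a site that is not listed was not called in that library and cannot be called closed. E10.5 Anterior had the shortest list by far, and the E10.25 CKO lists ran from 15626 to 42742. In the gene targeted by the deletion, Etv2, 0 of 7 CKO libraries listed a summit, against 2 of 2 of E10.25 WT and 1 of 3 of E10.5 HL EYFP+. Promoters of 6 limb mesenchyme genes were listed in 19 (Prrx2) to 32 (Lhx2) of 32 libraries. Of the endothelial genes, Cdh5, Pecam1 and Tie1 were listed in 0 libraries and Tek in 4, while Kdr was listed in 32. Of the blood genes, Ptprc and Spi1 were listed in 0 libraries and Gata1 in 1, of E10.25 WT.

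The ZRS and 5 further sites are shown first, because the differences between groups rest on them. Sequences are from GRCm38.p6, the assembly of mm10, on the plus strand. Sites are named by their distance from the Shh start, with plus towards Mnx1. Capitals mark matches on either strand to the words of the ETV2 motif (AGGAAGT or AGGAAAT after A, C or G), the HAND2 E-box CATCTG, the HOX word CAATAAA or a core word of the CTCF motif. A match describes the letters and not a bound site. The ZRS, 1676 bases as the study delimits it, lies within an intron of each of 5 Lmbr1 transcripts (in 4 of them the intron at chr5:29292950-29323801), and its site at +848 kb is shown as the stretch with 3 ETV2 words and the 300 bases around the median summit.
ZRS, ETV2 words, chr5:29314960-29315092: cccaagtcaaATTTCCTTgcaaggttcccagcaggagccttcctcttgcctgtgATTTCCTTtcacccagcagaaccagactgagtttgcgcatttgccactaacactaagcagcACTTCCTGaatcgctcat
ZRS, median summit, chr5:29315084-29315383: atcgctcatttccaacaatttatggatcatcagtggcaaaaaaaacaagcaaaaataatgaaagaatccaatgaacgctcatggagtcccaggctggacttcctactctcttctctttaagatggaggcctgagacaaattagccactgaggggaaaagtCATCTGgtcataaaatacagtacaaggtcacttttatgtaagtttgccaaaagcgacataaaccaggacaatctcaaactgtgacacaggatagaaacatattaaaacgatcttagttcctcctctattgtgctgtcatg
+2.55 kb, upstream of Shh, chr5:28469647-28469846: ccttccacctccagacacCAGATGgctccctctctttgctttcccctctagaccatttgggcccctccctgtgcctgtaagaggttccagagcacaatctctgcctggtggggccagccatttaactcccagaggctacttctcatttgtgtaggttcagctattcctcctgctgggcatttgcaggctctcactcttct
+156 kb, gene desert, chr5:28623512-28623711: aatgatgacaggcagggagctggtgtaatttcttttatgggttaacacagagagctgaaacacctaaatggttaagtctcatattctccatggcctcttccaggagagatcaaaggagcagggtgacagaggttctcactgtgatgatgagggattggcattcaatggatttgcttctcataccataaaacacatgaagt
+624 kb, gene desert, chr5:29091344-29091543: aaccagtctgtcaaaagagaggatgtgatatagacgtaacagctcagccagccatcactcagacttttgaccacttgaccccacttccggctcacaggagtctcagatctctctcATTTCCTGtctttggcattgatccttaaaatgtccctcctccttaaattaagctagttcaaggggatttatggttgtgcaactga
+889 kb, Lmbr1 intron, chr5:29356056-29356255: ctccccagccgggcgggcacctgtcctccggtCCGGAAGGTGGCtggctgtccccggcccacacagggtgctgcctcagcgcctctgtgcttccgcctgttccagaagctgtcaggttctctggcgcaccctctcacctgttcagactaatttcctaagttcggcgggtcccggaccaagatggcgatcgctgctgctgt
+1018 kb, beyond Mnx1, chr5:29485275-29485474: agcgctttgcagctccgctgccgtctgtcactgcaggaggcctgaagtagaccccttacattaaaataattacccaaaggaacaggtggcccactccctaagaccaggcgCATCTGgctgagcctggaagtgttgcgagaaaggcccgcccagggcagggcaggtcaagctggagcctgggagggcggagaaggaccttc

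The whole ZRS held 5 ETV2 words. In the 500 bases around site centres, 6 of 36 sites held an ETV2 word (16.7%, against 21.4% of the 101292 recurrent sites of the genome), and the ZRS site held 3 of them. A HAND2 E-box was found at 12 sites (33.3%, against 35.1%), the HOX word at 1 site (2.78%, against 11.2%) and the CTCF core at 8 sites (22.2%, against 15.8%). The domain had 36 recurrent sites, and the median window of its length in the genome had 45 (quartiles 24 and 64, over 2260 windows).

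**Figure D1:**
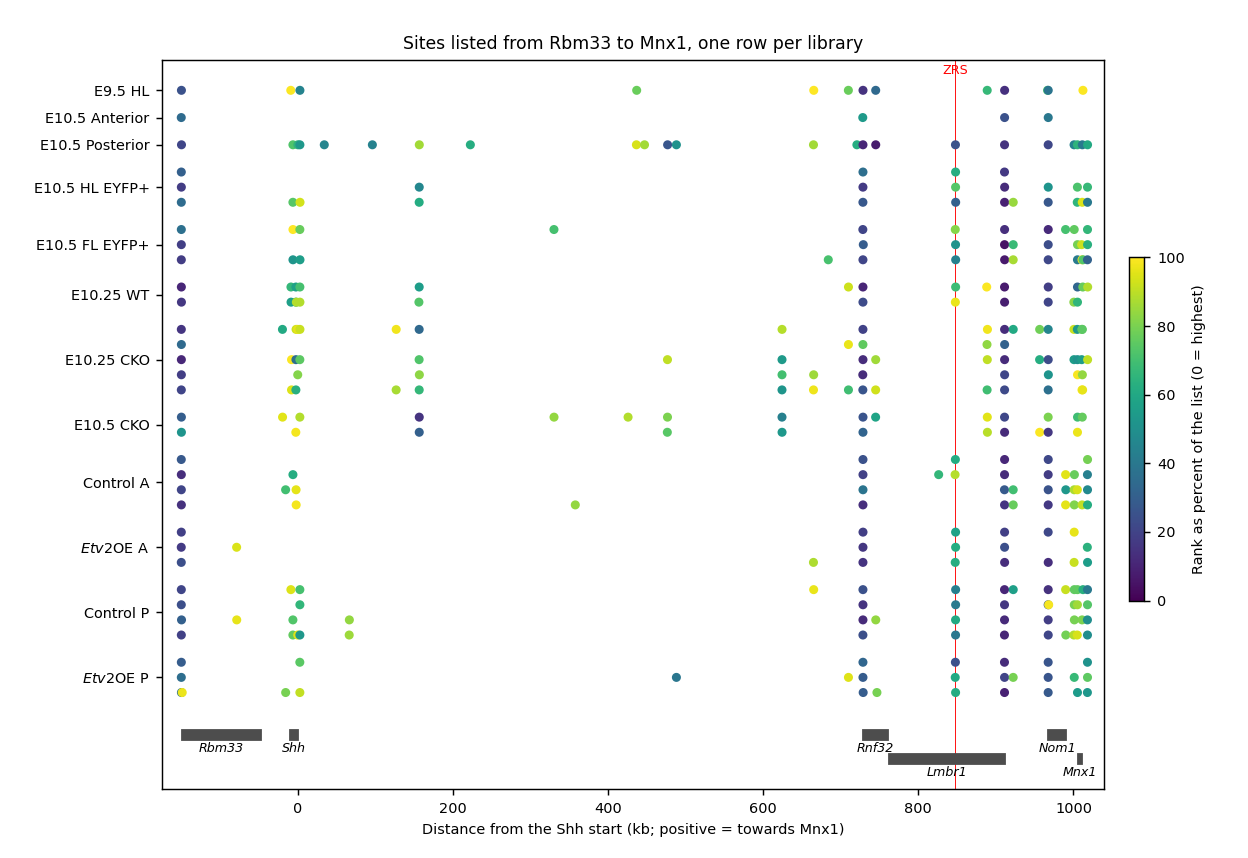
Sites listed in each library (rows, grouped by population) against distance from the Shh start in kb, coloured by rank as percent of the library's list. Columns at the Rbm33, Rnf32 and Lmbr1 promoters run through all 32 libraries, the ZRS column has gaps at E9.5 HL, E10.5 Anterior and the CKO libraries, and the desert between Shh and Rnf32 is sparse.

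The recurrent sites were unevenly spread. The 40 kb around Shh held 9 sites, the 710 kb of desert up to Rnf32 held 10, the 190 kb of Rnf32 and Lmbr1 held 5, and the 120 kb from the Lmbr1 start to beyond Mnx1 held 10. Sites of the desert were listed in a median of 3 libraries and at most 11, whereas those of Rnf32 and Lmbr1 had a median of 21. Of the 36 sites, 3 were listed in all 32 libraries (8.33%, against 6.25% of recurrent sites in the genome). 16 sites were listed in 2 to 4 libraries (44.4%, against 34.1%).

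By median percent of the list, the promoters of Lmbr1, Rbm33, Rnf32 and Nom1 were the strongest sites of the domain. The Lmbr1 promoter, at 1 bp from the annotated start, was listed in 32 of 32 libraries, at 4.98% to 31.1% of the list counted from the top, with a median of 12.9%. The Rnf32 promoter was also listed in all 32, never further down than 75.8% of the list, with a median of 21.8%. The Nom1 promoter, Nom1 being a nucleolar protein gene, was listed in 29 of 32, never further down than 80.3%, with a median of 23.0%. The 3 libraries without it were 1 of E10.5 HL EYFP+, 1 of E10.25 CKO and 1 of Etv2OE A. Rbm33, on the far side of Shh, was listed at its promoter in 32 of 32 libraries, with a median of 20.6%.

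The promoters of Shh and Mnx1 were listed in few libraries. The Shh promoter had a summit within 500 bp of the start in 4 of 32 libraries, namely E10.5 Posterior, 2 of 5 of E10.25 CKO and 1 of 4 of control P. These summits stood between 65.1% and 96.4% of the list, in its lower part. The Mnx1 promoter was listed in 9 of 32 libraries, with a median of 83.8%, and those libraries came from 7 of the 12 groups. E10.5 HL EYFP+ listed the Shh promoter in 0 of 3 libraries and E10.5 FL EYFP+ in 0 of 3.

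**Figure D2:**
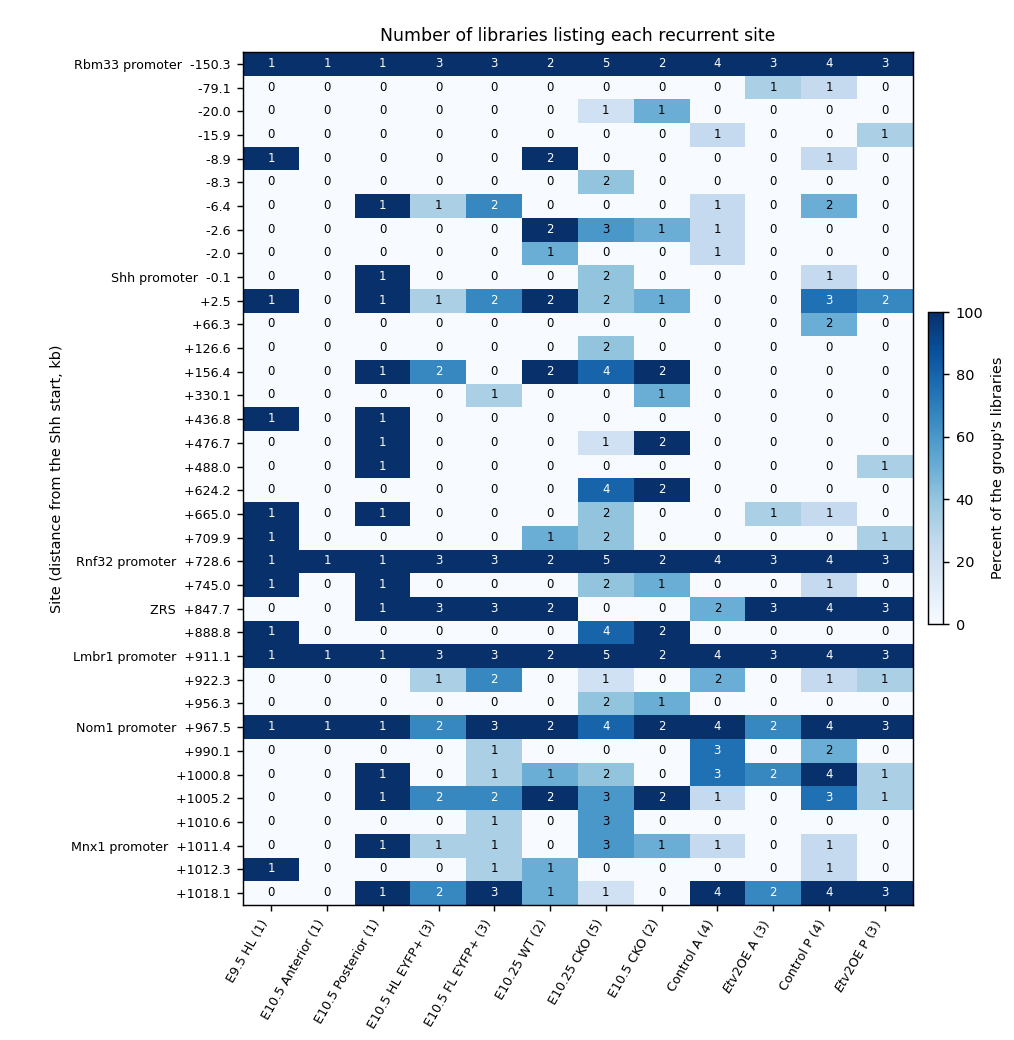
Number of libraries of each group (columns, group size in brackets) that list each of the 36 recurrent sites (rows, distance from the Shh start in kb), shaded by percent of the group. The Rbm33, Rnf32 and Lmbr1 promoters fill every column, and the +624 kb site is filled in the CKO columns alone.

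The ZRS was listed in 21 of 32 libraries and was the domain's most frequent site after the promoters, together with the +1018 kb site. Of the reporter-sorted cells it was listed in 3 of 3 libraries of E10.5 HL EYFP+, in 3 of 3 of E10.5 FL EYFP+ and in E10.5 Posterior. It was listed in 2 of 2 of E10.25 WT and in 0 of 5 of E10.25 CKO and 0 of 2 of E10.5 CKO. E9.5 HL and E10.5 Anterior, 1 library each, did not list it. Their lists ended at 36947 and 13763, while the ZRS stood at rank 11523 in E10.5 Posterior. It stood at ranks 20046, 30442 and 10565 in E10.5 HL EYFP+ and at 30412, 23586 and 20898 in E10.5 FL EYFP+. Most of these ranks lie beyond the end of the E10.5 Anterior list and could not have been listed there. Of the overexpression experiment, the ZRS was listed in 2 of 4 of control A, 3 of 3 of Etv2OE A, 4 of 4 of control P and 3 of 3 of Etv2OE P.

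The rank of the ZRS varied widely within groups. In E10.5 HL EYFP+ it stood at 62.2%, 73.7% and 30.7% of the list, and in E10.5 FL EYFP+ at 81.7%, 51.2% and 43.2%, so the groups overlapped. In E10.5 Posterior it stood at 25.4%. In E10.25 WT it stood at 68.5% and 96.8%, near the end of the second list. The values in control P were 42.3%, 41.0%, 60.2% and 39.5%, and in the listing control A libraries they were 61.2% and 89.0%, so the control portions did not overlap by percent of the list. They overlapped by rank, since embryo 1 of control A (25043) stood above embryo 3 of control P (32922), and in the rank scores below. The values in Etv2OE A were 57.7%, 61.8% and 62.2%, and in Etv2OE P they were 24.5%, 60.7% and 61.5%.

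Within a library, ranks share the same depth. The Lmbr1 promoter, whose gene houses the ZRS, ranked above the ZRS in 21 of 21 libraries that listed both, the Rnf32 promoter in 20 of 21 and the Nom1 promoter in 18 of 19. The Shh promoter ranked above the ZRS in 0 of 2 such libraries and the Mnx1 promoter in 0 of 4. The ZRS took its highest place in the domain in embryo 7 of Etv2OE P, as the second of 7 summits.

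Summits in the ZRS did not share 1 position. They ran from base 22 to base 781 of its 1676 bases, counted from the end nearer to Shh, and none lay beyond, although the last ETV2 word lies at 29316233 to 29316240. The 4 summits of control P lay between bases 634 and 733, and those of E10.5 HL EYFP+ between 667 and 781. The summit of E10.5 Posterior, at base 486, was 2.5 bp from the middle of the third word. In the Etv2OE P libraries, summits lay at bases 412, 208, 190 and 677, the last pair in embryo 10. With sites 200 bp apart instead of 500 bp, the ZRS split into several sites.

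**Figure D3:**
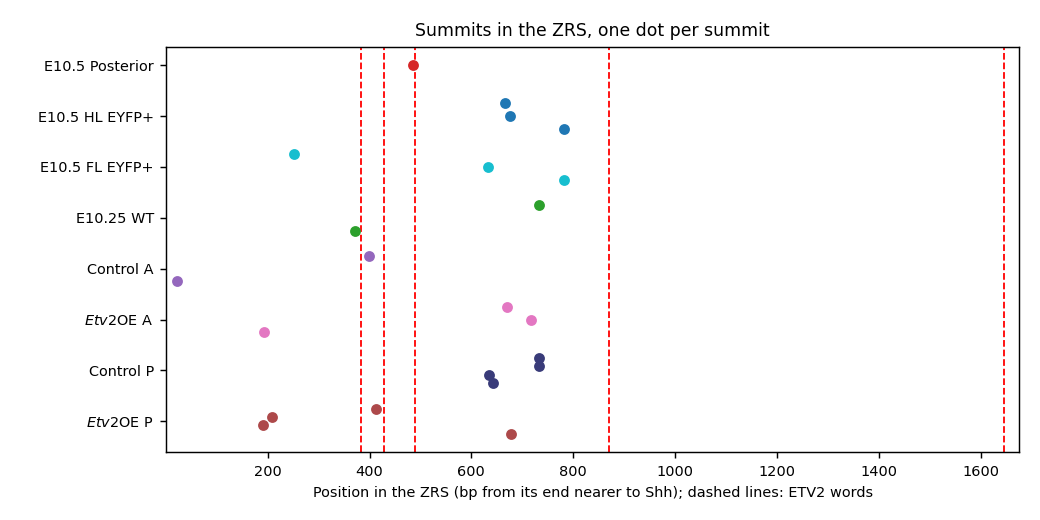
Position of each summit in the ZRS (x axis, bp from the end nearer to Shh) by group (rows), with dashed lines at the 5 ETV2 words. All summits lie between bases 22 and 781, and those of control P and E10.5 HL EYFP+ lie between the third and the fourth word.

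The CKO libraries were compared with E10.5 HL EYFP+ to ask which sites of the domain differ where Etv2 was deleted. For tests, all lists of a comparison were shortened to the same length, and the rank score of a site ran from 1 at the top to 0 when not listed. Of 8 domain sites tested by limma, 2 passed an adjusted p of 0.05, and both were lower in E10.5 HL EYFP+ (of all sites 3.56% were called in that direction, and 5.13% in either). Neither was the ZRS. Each library decided these calls. The call at +156 kb was lost without any of the 5 libraries (adjusted p from 0.0867 to 0.426), and that at +624 kb without any E10.5 HL EYFP+ library (0.0551 to 0.0938), and without either E10.5 CKO library +624 kb could not be tested. Of the muscle progenitor genes, the Pax3 promoter was listed in 3 of 3 of E10.5 HL EYFP+ and 0 of 2 of E10.5 CKO, Pax7 in 0 of both groups and Met in all libraries of both. The part of these cells in the results was not tested.

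The +156 kb site lies in the desert, in an intron of the antisense transcript 9530036O11Rik. Its rank score in E10.5 CKO was 0.726 ± 0.0974 (SD, n = 2) and in E10.5 HL EYFP+ 0.130 ± 0.121 (SD, n = 3). The difference was -0.60 (SE 0.100, limma adjusted p = 0.0482). In the whole lists it stood at 14.9% and 30.2% in E10.5 CKO, and at 46.1% and 61.6% in the 2 listing E10.5 HL EYFP+ libraries. The groups did not overlap. Of 29717 sites tested in the genome, 5673 had an unadjusted limma p under 0.05 in this comparison. The +156 kb site was also listed in 4 of 5 of E10.25 CKO, in 2 of 2 of E10.25 WT and in E10.5 Posterior, and in 0 of 3 of E10.5 FL EYFP+. None of the 14 libraries of the overexpression experiment listed it. Of recurrent sites in the genome, 1.2% were listed in at least 8 of the other 18 libraries and in none of these 14, a pattern chosen after the values were seen. The +156 kb site held no ETV2 word in its 500 bases.

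The +624 kb site lies between genes, 105 kb from the Rnf32 start. Its rank score in E10.5 CKO was 0.396 and 0.407, and it was not listed in E10.5 HL EYFP+. The difference was -0.40 (SE 0.0573, limma adjusted p = 0.0341). The site entered this test through the 2 E10.5 CKO libraries alone, and its scores in E10.5 HL EYFP+ were all 0. The p-value therefore restates the presence pattern and adds no support to it. It was listed in 4 of 5 of E10.25 CKO and 2 of 2 of E10.5 CKO, and in 0 of the other 25 libraries. In the genome 20 of 101292 recurrent sites (0.0197%) were listed in at least 6 of 7 CKO libraries and in none of the others, again a pattern chosen after the values were seen. The percent of the list in E10.25 CKO was 89.0%, 54.1%, 70.3% and 52.0%. The site held 1 ETV2 word, within the printed window.

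By presence in the whole lists, 1 of 13 domain sites listed by at least 2 of these libraries was listed in all 3 of E10.5 HL EYFP+ and in neither of E10.5 CKO, and it was the ZRS (background 7.64%). With summits of -log10 q of at least 5 alone, the ZRS was left in 1 of these 3 libraries, the values in the other 2 being 4.899 and 4.598. In the other direction there were 3 sites (background 5.68%), at +477 kb, +624 kb and +889 kb. The rank score difference of the ZRS by limma was 0.26 (SE 0.183, adjusted p = 0.523), with 0.259 ± 0.293 (SD, n = 3) in E10.5 HL EYFP+ and 0 in both E10.5 CKO lists. The 3 ranks of the ZRS in E10.5 HL EYFP+ were 20046, 30442 and 10565, and the E10.5 CKO lists were longer than these ranks in 2, 1 and 2 of 2 cases. A rank that is beyond the end of a list could not have been listed there.

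The +889 kb site lies in an intron of Lmbr1 and is annotated as repeat over all of its 500 bases. It was listed in 4 of 5 of E10.25 CKO, 2 of 2 of E10.5 CKO and in E9.5 HL, at 67.1% to 97.8% of the list. The +477 kb site, between genes, was listed in 2 of 2 of E10.5 CKO, 1 of 5 of E10.25 CKO and in E10.5 Posterior, where it stood at 26.9%. In the domain 4 of 36 sites were wholly repeat (11.1%, against 2.96% in the genome), with GC content of 65.4% to 67.2%. Every one of them was listed in at least 2 CKO libraries. So were sites that were not wholly repeat, such as those at +156 kb and +624 kb and the Rnf32 and Lmbr1 promoters. Of the genome's sites listed in both E10.5 CKO and in no E10.5 HL EYFP+ library, 3.59% were wholly repeat, against 0.193% in the other direction. The part of alignment in repeats in these results was not tested.

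At E10.25, posterior hindlimb with and without Etv2 was compared. Of 4 domain sites tested by limma, 0 were called (background 2.95%), and 1 had an unadjusted p under 0.05, the Nom1 promoter at 0.0292. By presence, 2 sites were listed in both E10.25 WT libraries and in none of 5 of E10.25 CKO (background 5.77%), the ZRS and a coding exon of Shh at -8.93 kb. In the whole lists limma called the Shh exon (0.39 higher in E10.25 WT, adjusted p = 0.00956). It entered that test through the 2 E10.25 WT libraries alone, so the call restates its presence pattern and adds no support to it. The whole lists were not cut to the same length, and of 44709 sites of the genome 2119 were called higher and 37 lower. The Shh exon was also listed in E9.5 HL and in 1 of 4 of control P. No site was listed in all CKO and no WT libraries (background 0.148%). The ranks of the ZRS in E10.25 WT were 29839 and 32956, and with -log10 q of at least 5 it was left in 1 of the 2 libraries, the other value being 2.16. Of the 5 E10.25 CKO lists, 3 were longer than the higher of these and 1 was longer than the lower, and in the lists cut to the same length of 15000 the ZRS could not be tested. The labels of the 5 E10.25 CKO libraries bear 5 dates and those of the E10.25 WT libraries 1 other date, so date and genotype cannot be told apart. Pax3 was listed in 2 of 2 of E10.25 WT and 2 of 5 of E10.25 CKO, Pax7 in 0 and 2, and the ectoderm gene Epcam in 2 and 4, and their part was not tested.

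**Figure D4:**
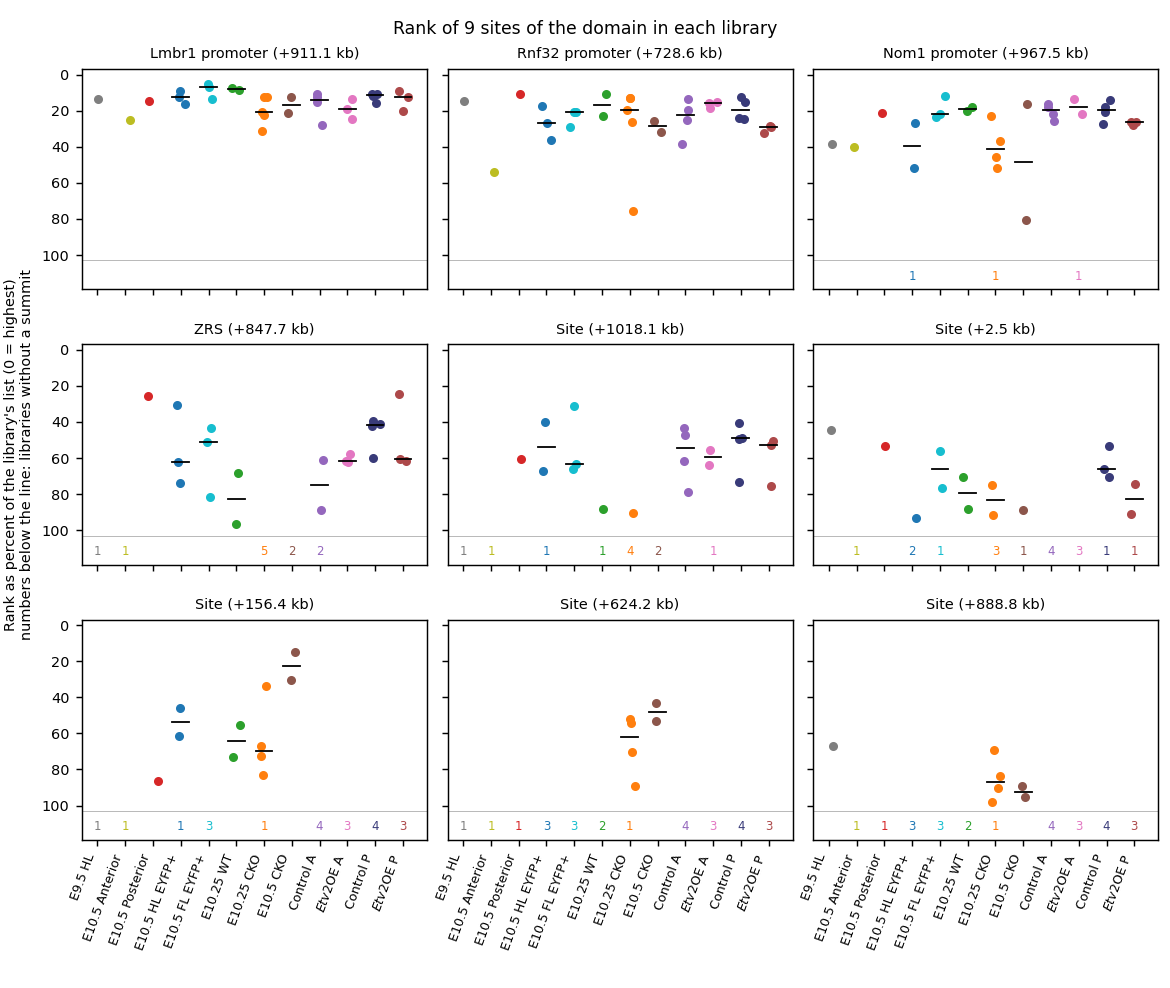
Rank as percent of the library's list (y axis, 0 = highest, reversed) for 9 sites in each library of 12 groups, with the group median as a line and the number of libraries without a summit below. The Lmbr1 promoter is high in every library, and the +624 kb site has points in the CKO groups alone.

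Overexpression of Etv2 was compared with control in each portion of the hindlimb. In the anterior portion, 0 of 6 tested domain sites passed limma (0 of 37992 in the genome), and in the posterior portion 0 of 8 (background 0.0249%). An unadjusted p under 0.05 was found at 1 of the 6 sites and at 2167 sites of the genome in the anterior portion, and at 0 of the 8 in the posterior. The ZRS had the smallest unadjusted p of the tested domain sites in the anterior portion. Its rank score was 0.275 ± 0.0580 (SD, n = 3) in Etv2OE A and 0.0413 ± 0.0826 (SD, n = 4) in control A, where 1 of 4 shortened lists held it. The difference was 0.23 (SE 0.0592, limma adjusted p = 0.649), and every Etv2OE A library was above every control A library in these shortened lists. By percent of the whole list they overlapped, with embryo 1 of control A at 61.2% above Etv2OE A embryos 9 and 10. The adjusted p misses the threshold across all sites. In the posterior portion the difference was 0.14 (SE 0.122, adjusted p = 0.882), with overlapping groups, and it turned to -0.0313 in the whole lists. The difference between the portions in the effect of overexpression at the ZRS was 0.10 (SE 0.143, interaction by limma, adjusted p = 0.976, background 0.0213%), in the sense of a larger effect in the anterior portion. No domain site was listed in all Etv2OE and no control libraries of a portion or the reverse (background 0.159% and 0.991% for A, 0.103% and 1.47% for P). Epcam was listed in 4 of 4 of control P and 0 of 3 of Etv2OE P, and in 2 of 4 of control A and 1 of 3 of Etv2OE A, and its part was not tested.

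The anterior and posterior portions came from the same embryos. In controls the ZRS rank score was 0.104 ± 0.181 (SD, n = 4) in A and 0.391 ± 0.143 (SD, n = 4) in P, a difference of -0.29 (SE 0.105, limma adjusted p = 0.243). It passed with summits of -log10 q of at least 5 alone (-0.34, adjusted p = 0.0490). These lists were not cut to the same length, and 2352 of 47915 sites of the genome were called, 2033 lower in A and 319 higher. With sites 200 bp apart the site centred on base 781 passed (-0.39, adjusted p = 0.0363), where 1207 of 58578 sites of the genome were called. In that site the control P summits lay between bases 634 and 733. The control A summits of the ZRS, at bases 399 and 22, fell outside it, so that site entered the test through control P alone. None of 10 tested sites passed (background 3.15%, 1 of them with an unadjusted p under 0.05), and 0 sites were listed in all A and no P libraries or the reverse (background 0.484% and 2.28%). With the embryo as block, calls over all sites fell from 1704 to 291 in controls and from 371 to 0 in Etv2OE. In Etv2OE the difference was -0.07 (SE 0.122, adjusted p = 0.864), and 0 of 6 sites passed (background 1.0%, 2 of them with an unadjusted p under 0.05), with 0 listed in all of 1 portion and none of the other (background 1.26% for A and 3.22% for P). Over the 7 embryos, the ZRS was listed in P of 7 and in A of 5, and in those 5 it stood higher in P by percent of the list in 5 and by rank in 3, since the P lists were longer. Embryos 9 and 10 of Etv2OE were those with the better rank in A.

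The +2.55 kb site, just upstream of the Shh start within the long noncoding RNA Gm26894, was listed in 15 of 32 libraries. Of the 7 embryos, 5 had it in P alone and 0 had it in A, a pattern noted after its values were seen. The share of genome sites with this pattern was not counted. The P lists were the longer ones, with 51265 to 54676 summits in controls against 40945 to 45762 in A. In Etv2OE they held 38148 to 47051 against 32666 to 37993. The part of list length in the pattern was not tested. In control P the +2.55 kb site stood at 70.6%, 65.9% and 53.1%, and in Etv2OE P at 74.3% and 90.9%, in the lower part of the lists. By limma the control difference was -0.13 (SE 0.0597, adjusted p = 0.371), with the site in 0 control A lists. E10.5 Posterior and E9.5 HL listed it and E10.5 Anterior did not, but the E10.5 Anterior list ended at 13763, before the best rank of the site, 16471. It was also listed in 2 of 5 of E10.25 CKO and 2 of 2 of E10.25 WT.

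The forelimb and hindlimb EYFP+ cells came from shared pools. Of 10 domain sites tested by limma, 0 passed (0 of 37770 in the genome), and 0 had an unadjusted p under 0.05 (2493 in the genome). Of the domain sites 0 were listed in all libraries of one limb and none of the other (background 2.83% for forelimb and 0.543% for hindlimb). The ZRS differed by -0.15 (forelimb minus hindlimb, SE 0.178, adjusted p = 0.950). The +156 kb site was listed in 2 of 3 hindlimb and 0 of 3 forelimb libraries, with a difference of -0.22 (SE 0.107, adjusted p = 0.781). Epcam was listed in 3 of 3 forelimb and 0 of 3 hindlimb libraries, and its part was not tested.

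**Figure D5:**
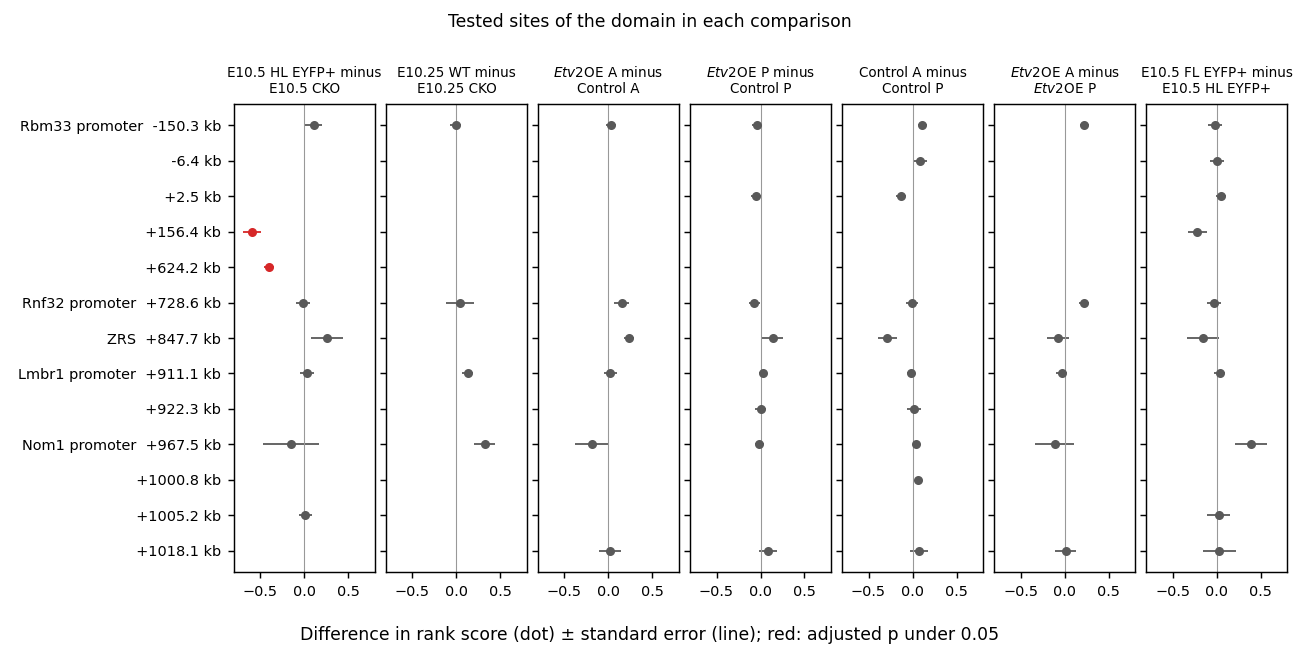
Difference in rank score (x axis, -1 to 1 possible) with its standard error for each tested domain site (rows) in 7 comparisons (panels), each the first named group minus the second. The red points, at +156 kb and +624 kb in the first panel, are the 2 that passed an adjusted p of 0.05.

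The +1018 kb site beyond Mnx1 had the presence pattern most like that of the ZRS. It was listed in 21 libraries, of which 18 also listed the ZRS, a Jaccard index of 0.75 over 32 libraries. The next most alike were the Rbm33, Rnf32 and Lmbr1 promoters at 0.656, as sites listed in all libraries, and the Nom1 promoter at 0.613. The +1018 kb site was listed in 1 of 5 of E10.25 CKO and 0 of 2 of E10.5 CKO, and in 4 of 4 of control A. Its rank score in A minus P of controls was 0.07 (SE 0.107, adjusted p = 0.796).

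The gene Shh itself carried sites listed in few libraries. The sites of this paragraph were chosen after their values were seen. The intron site at -6.44 kb was listed in 7 libraries, all of which listed the ZRS. The ZRS was listed in 21 of 32 libraries, and the share of genome sites listed in such libraries alone was not counted. The intron site at -2.60 kb was also listed in 7, of which 2 listed the ZRS, and came from E10.25 WT in 2 of 2, E10.25 CKO in 3 of 5, E10.5 CKO in 1 of 2 and control A in 1 of 4. In the Rnf32 intron, the +745 kb site stood at 7.79% of the list in E10.5 Posterior, the highest rank of any domain site outside the promoters. It was listed in 6 libraries, and in the other 5 it stood between 33.9% and 92.7%. E10.5 Posterior was 1 library, so this has no replicate check.

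No comparison of the number of domain summits in lists of the same length passed an exact permutation test (7 comparisons, two-sided, adjusted by Benjamini-Hochberg). The smallest p possible was 0.10 for E10.5 CKO with E10.5 HL EYFP+, the Etv2OE portions and the EYFP+ limbs. It was 0.0476 at E10.25 and 0.0286 in the other comparisons. After adjustment over the 7, none could reach 0.05, so the test could not decide for any of them. The largest difference was between Etv2OE A, with 5.33 ± 0.577 summits (SD, n = 3), and Etv2OE P, with 7.33 ± 1.15 (SD, n = 3, exact permutation p = 0.2, adjusted 0.70). P was higher in each of the 3 embryos, and the test did not use the pairing. In Etv2OE P the 35000 highest summits held 8.67 ± 1.53 in the domain and in control P 6.75 ± 0.957 (exact permutation p = 0.143, adjusted 0.70).

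Of the Shh pathway and the ZRS regulators, promoters of 20 genes were looked up. 10 were listed in all 32 libraries, among them Smo, the transducer of the signal, Gli3, a transcription factor that represses targets of the signal, and Sufu, an inhibitor of GLI factors. The promoter of Gli1, a target of the signal, was listed in 16 libraries, in 0 of 2 of E10.5 CKO, 2 of 3 of E10.5 HL EYFP+, 2 of 5 of E10.25 CKO and 1 of 2 of E10.25 WT, and that of Ptch1, the receptor, in 2. Hand2, a regulator of Shh, was listed in 27 and Hoxd13 in 20. Of 18 genes tested at E10.25, the promoter of 1, Disp1, which releases the signal from the cell, was called higher in E10.25 WT than in E10.25 CKO, and 0 were lower (background 2.43% and 0.521%). This call was lost without either E10.25 WT library and with the replicate number as block, where 0 sites were called in the genome, against 555. In the 7 other tests 0 of 16 to 19 were called.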

How the data were processed

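ATAC-seq libraries were 75-bp paired ends per the methods. The authors aligned reads to mm10 with Bowtie2 2.2.4, removed duplicates and shifted read starts for the transposase, and called summits in each library with MACS2 (version not given in the sources used here). In the deposited lists each line is 1 summit with its position and -log10 q-value, the lowest of which corresponded to a q-value of 0.05. Peak names in the 18 lists of cell populations carry a tag for removed duplicates and those in the 14 lists of the overexpression experiment do not, and no test crosses these sets. No depth is known, so no interval or detection limit was given.

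Summits were placed greedily by rank into sites at least 500 bp apart, and mitochondrial summits were left out. Tied values shared the mean rank. The rank score ran from 1 for the first summit of a list down to 1 divided by its length for the last, and was 0 if a site was not listed, in lists cut to the largest multiple of 5000 that each comparison allowed. limma 3.58.1 (lmFit and eBayes) was fitted to all sites listed in at least 2 of the compared libraries, with Benjamini-Hochberg adjustment at 0.05. Numbers of domain summits were compared by exact permutation. Embryos and pools named in the labels count as replicates, and p-values measure the spread between these samples. Named were the 5 genes, sites in the ZRS, sites past the threshold, sites in at least 28 libraries, up to 5 sites listed in all libraries of one group and none of the other per comparison, and the 5 most like the ZRS. The +2.55, +745, -2.60 and -6.44 kb sites fall outside this rule and were chosen after their values were seen. The members, lists and tests were chosen with earlier results of these data known. The genome was GRCm38.p6 with GENCODE M21 basic annotation. Library labels pair A and P portions by embryo and forelimb and hindlimb by pool. Deviations from group means correlated at 0.0162 to 0.0891 for A and P of the same control embryo (other pairs -0.0475 to 0.0303), at 0.0286 to 0.0703 for Etv2OE (-0.0539 to 0.00456) and at 0.273 to 0.566 for pools (-0.355 to 0.114). A fit with that number as block was an alternative. The fits were tested on simulated data made from these lists, in which 200 sites were shifted. The draw of shifted sites was changed from those of the largest spread to random ones after few of the first were recovered. Of the random ones, none were recovered for forelimb against hindlimb and for E10.5 CKO against E10.5 HL EYFP+, which limits what few calls show in these comparisons.

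Alternatives were the whole lists, lists 0.5 as long, sites 200 or 1000 bp apart, summits with a -log10 q-value of at least 5, the 10000 highest summits, sites listed in at least 1 library, a replicate block and each library left out.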

Additional observations from a re-analysis of the deposited data

Results flagged for a closer look

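The 3 groups of at least 4 libraries were looked at for 12 pairs of group and measure, and in 3 of these pairs 1 library stood far from the others, where chance gives about 1 in 20. In E10.25 CKO the Rnf32 promoter stood at 75.8% of the list in replicate 2, and the other 4 libraries stood between 12.7% and 26.2%. Replicate 2 also had the shortest list of its group, with 15626 summits. In control A, embryo 1 had 1.47 domain summits per 10000 listed, and the other 3 had between 2.32 and 2.48. In control P the ZRS of embryo 3 stood at 60.2% of the list, and the other 3 stood between 39.5% and 42.3%. What sets these libraries apart was not tested.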

How the results depend on the processing

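The 2 domain sites called for E10.5 CKO against E10.5 HL EYFP+ became 1 in the whole lists, 1 with sites 200 bp apart and 1 with sites in at least 1 library, and 0 with lists 0.5 as long, with summits of -log10 q of at least 5 and without any library (0 to 0), and the count was 2 with sites 1000 bp apart. Calls rose from 0 to 1 in the whole lists at E10.25, and from 0 to 1 in control A against control P with sites 200 bp apart and with -log10 q of at least 5. The ZRS difference of Etv2OE P and control P turned to -0.0313 in the whole lists and -0.0949 with -log10 q of at least 5. Without 1 library it ran from -0.147 to 0.0581 between Etv2OE portions, turning without Etv2OE P embryo 7, and from -0.317 to 0.00650 between forelimb and hindlimb, turning without E10.5 HL EYFP+ replicate 3. It turned to 0.0490 between forelimb and hindlimb with -log10 q of at least 5, and to -0.25 for the interaction with sites 200 bp apart. The difference in domain summits per list of Etv2OE P and control P turned to -2.58 in the whole lists and -0.833 with -log10 q of at least 5. Without 1 library it ran from -0.5 to 2.5 for forelimb against hindlimb, turning to -0.5 without E10.5 HL EYFP+ replicate 1, and from -0.40 to 0.60 at E10.25, turning to -0.40 without E10.25 WT replicate 1. The 36 recurrent sites became 5 and the sites in all libraries 0 with the 10000 highest summits, there were 20 recurrent sites with -log10 q of at least 5, and with sites 200 bp apart 1 site was in all libraries. The ZRS was in 0 of the lists of 10000 highest summits. The causes were not tested.

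With the replicate block, 0 domain sites were called for E10.5 CKO against E10.5 HL EYFP+, whose numbers do not pair the libraries (correlations -0.0254 to 0.0269 for the same number), and 0 domain sites in the other blocked comparisons, as without the block. Over all sites the block moved calls from 1525 to 0 in that comparison, from 555 to 0 at E10.25, from 1704 to 291 between control portions, from 371 to 0 between Etv2OE portions and from 10 to 0 for the interaction. Calls over all sites also fell to 0 without any 1 library between Etv2OE portions, without either E10.25 WT library, and for E10.5 CKO against E10.5 HL EYFP+ without any library but E10.5 HL EYFP+ replicate 3 (1084). The 2 comparisons of Etv2OE with control share no numbers, and no paired analysis was possible there.

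No depth or signal over background is known for any list.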

Other observations

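E10.5 Posterior held 23 domain summits, the most of the 32 libraries, in a list of 45346. Per 10000 listed summits it held 5.07, against 5.54 in E10.25 CKO replicate 1 and 5.07 in replicate 4. Of the sites of E10.5 Posterior, 5 were listed in no other library, and they stood between 44.3% and 86.2% of its list. They lay in the desert between Shh and Rnf32. Of the hindlimb markers, the promoters of Pitx1 and Tbx4 were listed in 3 of 3 of E10.5 HL EYFP+ and in 1 of 3 of E10.5 FL EYFP+, and that of Isl1 in all 32 libraries. The promoter of Tbx5, the forelimb gene, was listed in 0 of 32 libraries, and the muscle progenitor genes Pax7, Pax3 and Met in 3, 13 and 32. The ectoderm genes Krt5 and Krt14 were listed in 0, Fgf8 in 3 and Epcam in 17.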
